A study of Bos taurus with 8 samples.

Results

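The dystrophin-glycoprotein complex spans the membrane of the muscle fibre and ties the cytoskeleton inside to the basement membrane outside. The genes asked for were sarcoglycans alpha, beta, delta and epsilon (SGCA, SGCB, SGCD, SGCE), dystroglycan (DAG1), dystrophin (DMD), utrophin (UTRN) and caveolin-3 (CAV3). A probe was taken as a member if the symbol of its RefSeq accession was one of these 8 genes. Gene names in the scanner output were not used for this match. This gave 6 of 21475 probes, for 4 of the 8 genes, among 7788 genes that could be named on the array. SGCB and SGCD had 2 probes each, and SGCE and CAV3 had 1 probe each. No probe was matched to SGCA, DAG1, DMD or UTRN by this rule, and these genes were not analysed here. The lookup gave a symbol to 7793 of 20693 accessions, so a gene without a matched probe may still lie on the array under an accession that was not resolved. SGCA and UTRN are on a gene list that the study chose from these same arrays.

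In striated muscle, the sarcoglycans form a subcomplex of single-pass membrane glycoproteins that stabilizes the link between dystroglycan and dystrophin. Loss of the beta or delta chain in humans causes limb-girdle muscular dystrophy. Caveolin-3 is the muscle form of the caveolins, proteins that shape the small membrane pits called caveolae, and it associates with the same complex. Caveolin-3 and alpha-sarcoglycan are known mainly from differentiated muscle, whereas the cells measured here were proliferating.

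RNA was measured in primary muscle cell cultures from the semitendinosus of bulls aged 15 months, with 4 bulls of each breed. Limousin (LIM) and Hereford (HER) are beef breeds, whereas Holstein Friesian (HF) is kept for milk and served as the reference. The cells were enriched for myoblasts by preplating, remained a mixture with other cells, received no treatment, and were collected while proliferating at 80% confluence. On 4 two-color arrays, LIM cells carried Cy5 and HF cells Cy3, and on another 4, HER cells carried Cy3 and HF cells Cy5. With 4 HF bulls for 8 HF samples, the comparisons share HF bulls, and which bull lies on which array is not given in the sources used here. Each comparison lay on its own slide, so breed, slide and dye cannot be told apart within a comparison, and the dyes were reversed between the comparisons.

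All values below are log2 ratios of the beef breed over HF from the scanner software, so that 1 means a doubling. Tests covered the 17629 of 21475 probes whose signal stood well above background in 4 or more of 16 color channels, and the 6 member probes did so in all 16. Over all tested probes, the array medians lay between −0.07 and 0.02. A probe was called changed at a Benjamini-Hochberg adjusted p of at most 0.05 over all tested probes (limma), together with a change of 1.3-fold or more.

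SGCB encodes beta-sarcoglycan, part of the core on which the sarcoglycan subcomplex assembles. Both probes lay on transcript NM_001102188. For probe 1 (A_73_109178), the log2 ratios of LIM replicates 1, 2, 3 and 4 were 1.60, 0.96, 1.21 and 0.60, and those of HER replicates 1, 2, 3 and 4 were 0.97, 1.19, 1.01 and 0.30. The beef cells were higher on every array, least so on replicate 4 of each comparison. The mean was 1.09 ± 0.42 (SD, n = 4) in LIM, a 2.13-fold difference with a limma adjusted p of 0.00357, and 0.87 ± 0.39 (SD, n = 4) in HER, a 1.83-fold difference with a limma adjusted p of 0.0156. In these bulk cultures, fewer cells of a type and less RNA per cell cannot be told apart.

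The second SGCB probe (A_73_111977) gave smaller ratios. Its log2 ratios were 1.10, 0.65, 0.51 and −0.08 in LIM replicates 1, 2, 3 and 4, and 0.82, 0.83, 0.76 and 0.13 in HER. Replicate 4 of LIM was the only array on which HF cells were slightly higher. The LIM mean of 0.54 ± 0.49 (SD, n = 4) missed the threshold (limma adjusted p = 0.0599), and the HER mean of 0.63 ± 0.34 (SD, n = 4) passed it (1.55-fold, limma adjusted p = 0.0465). The probes of SGCB thus had the same direction and differed in the LIM call.

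SGCD encodes delta-sarcoglycan, which pairs with beta-sarcoglycan in the core of the subcomplex. Both probes lay on transcript NM_001191263. Probe 1 (A_73_120980) had log2 ratios of 2.00, 1.25, 2.00 and 0.32 in LIM replicates 1, 2, 3 and 4, and of 1.22, 1.38, 1.82 and 0.06 in HER. Replicates 1 to 3 were more than 2-fold higher than HF in both comparisons, and replicate 4 was close to HF. The LIM mean was 1.39 ± 0.80 (SD, n = 4), with a limma adjusted p of 0.0141. The HER mean was 1.12 ± 0.75 (SD, n = 4), a 2.17-fold difference with a limma adjusted p of 0.0429.

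SGCD probe 2 (A_73_102667) followed probe 1 closely, with a Pearson r of 0.961 across the 8 arrays, which share HF bulls. It gave 1.94, 1.52, 2.00 and 0.33 in LIM replicates 1, 2, 3 and 4, and 0.84, 1.11, 1.52 and −0.17 in HER. The LIM mean of 1.45 ± 0.77 (SD, n = 4) was a 2.73-fold difference with a limma adjusted p of 0.0105. The HER mean of 0.83 ± 0.72 (SD, n = 4) did not pass the threshold (limma adjusted p = 0.0952). SGCD was therefore called in LIM by both probes and in HER by probe 1 alone.

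SGCE encodes epsilon-sarcoglycan, a relative of alpha-sarcoglycan that is found in many tissues beside muscle and is mutated in myoclonus-dystonia. Its probe (A_73_117016, transcript NM_001075145) had log2 ratios of 2.00, 1.86, 1.49 and 0.15 in LIM replicates 1, 2, 3 and 4, and of 1.46, 1.36, 1.18 and 0.31 in HER. All 8 arrays were above 0, and the array nearest 0 was replicate 4 of LIM. On that array the 2 spots of the probe disagreed, at −0.25 and 0.55. SGCE was thus 2.59-fold higher in LIM cells, with a mean of 1.37 ± 0.84 (SD, n = 4) and a limma adjusted p of 0.0104. It was 2.11-fold higher in HER cells, with a mean of 1.08 ± 0.53 (SD, n = 4) and a limma adjusted p of 0.0364.

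CAV3 had the highest HER mean and the widest LIM spread of the 6 probes. Its probe (A_73_117984, transcript NM_001046558) gave 2.57, 1.08, 1.40 and 0.11 in LIM replicates 1, 2, 3 and 4, and 1.59, 1.48, 1.76 and 0.98 in HER. The LIM values ran from near equality with HF to the largest ratio of any member on any array, whereas the HER values lay close together. CAV3 was 2.45-fold higher in LIM cells, with a mean of 1.29 ± 1.02 (SD, n = 4) and a limma adjusted p of 0.0174, and 2.74-fold higher in HER cells, with a mean of 1.45 ± 0.34 (SD, n = 4) and a limma adjusted p of 0.0173.

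**Figure D1:**
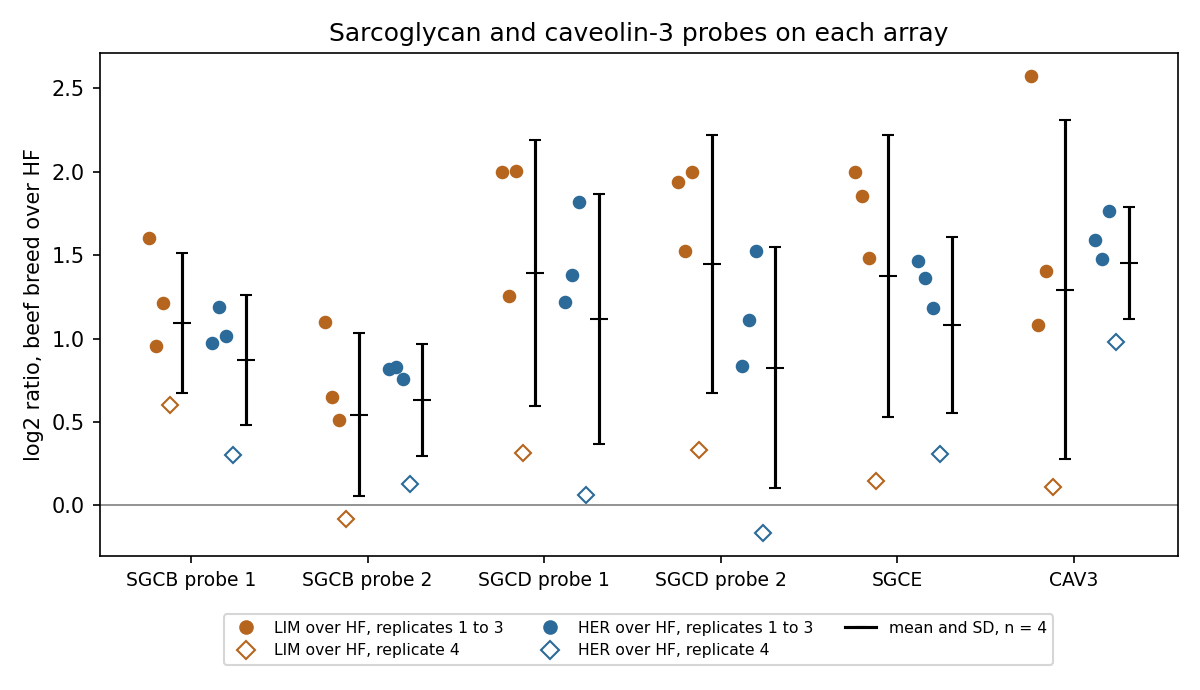
Log2 ratio of the beef breed over HF (vertical axis) for the 6 member probes on each array, with LIM in orange and HER in blue. Bars give the mean and SD of 4 arrays, and open diamonds mark replicate 4. Replicate 4 is the lowest array for every probe in both comparisons, and 46 of the 48 values lie above 0.

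By gene, all 4 genes with a probe were called higher in LIM (5 of 6 probes) and all 4 in HER (5 of 6 probes). Over all tested probes, 16% were called higher in LIM and 10.4% in HER. SGCB in LIM and SGCD in HER were each called through 1 of their 2 probes. Counted by probe, 4 of 6 (SGCB probe 1, SGCD probe 1, SGCE and CAV3) were called higher in both, beside 7.54% of all tested probes. SGCB and SGCE are also on the study's list, so their counts are not independent evidence of direction. The means of the 6 probes lay between the 80.9 and 95.3 percentiles of all tested probes in LIM and between the 87.8 and 97.1 percentiles in HER.

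Averaging LIM and HER cancels an effect of the dye, since the dyes were reversed between the comparisons. In this mean, all 6 probes were called higher, beside 17.7% of all tested probes. The mean log2 ratio ran from 0.59 for SGCB probe 2 (limma adjusted p = 0.00884) to 1.37 for CAV3 (limma adjusted p = 0.00201), and SGCB probe 1 had the smallest limma adjusted p (0.000755) at a mean of 0.98. These p-values treat the 8 arrays as independent, although their HF samples come from 4 bulls. SGCB probe 1, SGCD probe 1, SGCE and CAV3 were above 0 on 8 of 8 arrays, as were 11.7% of all tested probes.

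The normalized intensities of the color channels separate the beef samples from the HF samples on each array. HF cells had their highest level on replicate 4 of both comparisons for all 6 probes, and their lower levels on replicates 1 to 3. For SGCD probe 1, the HF intensities on replicates 1, 2, 3 and 4 were 74.3, 90.5, 75.8 and 248.4 on the LIM slide and 65.8, 97.2, 65.2 and 213.9 on the HER slide. The LIM intensities on the same arrays were 296.9, 215.4, 303.3 and 309.5, and the HER intensities were 152.8, 253.4, 229.6 and 223.4. HF replicate 4 was therefore within the range of the beef samples for this probe, while the other HF samples were all below it.

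For the other probes, HF replicate 4 was also the highest, by smaller factors. CAV3 on the HER slide also had a high replicate 2, with HF intensities of 202.4, 511.6, 230.4 and 632.6 on replicates 1, 2, 3 and 4. Factors were taken against the mean of the other HF samples on the log2 scale. On the LIM slide, HF replicate 4 exceeded that mean by a factor of 1.54 for SGCB probe 1, 1.36 for SGCB probe 2, 2.42 for SGCD probe 2, 2.04 for SGCE and 2.48 for CAV3. The factors on the HER slide were 1.6, 1.49, 2.75, 1.75 and 2.2 for the same probes. In the beef channels, replicate 4 lay between 0.657 and 1.42 times the mean of the other replicates, also taken on the log2 scale. The low ratios of replicate 4 thus went with a higher HF signal, and the lowest of the beef factors were those of SGCE and SGCB probe 2 in LIM, at 0.657 and 0.761.

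This pattern was noticed in the data and was also present among other probes. Over all tested probes, 23.2% had their highest HF level on replicate 4 of both comparisons, 15.2% had their lowest ratio there, and of the 1330 probes called higher in both, 43% did. Whether the replicate 4 arrays carried the same HF bull is not given in the sources used here. For SGCD probe 1, the SD of the log2 level was 0.83 and 0.80 among HF samples on the LIM and HER slides, and 0.25 and 0.32 among LIM and HER samples. SGCB probe 2 on the LIM slide was the exception, with 0.22 among HF and 0.29 among LIM samples.

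**Figure D2:**
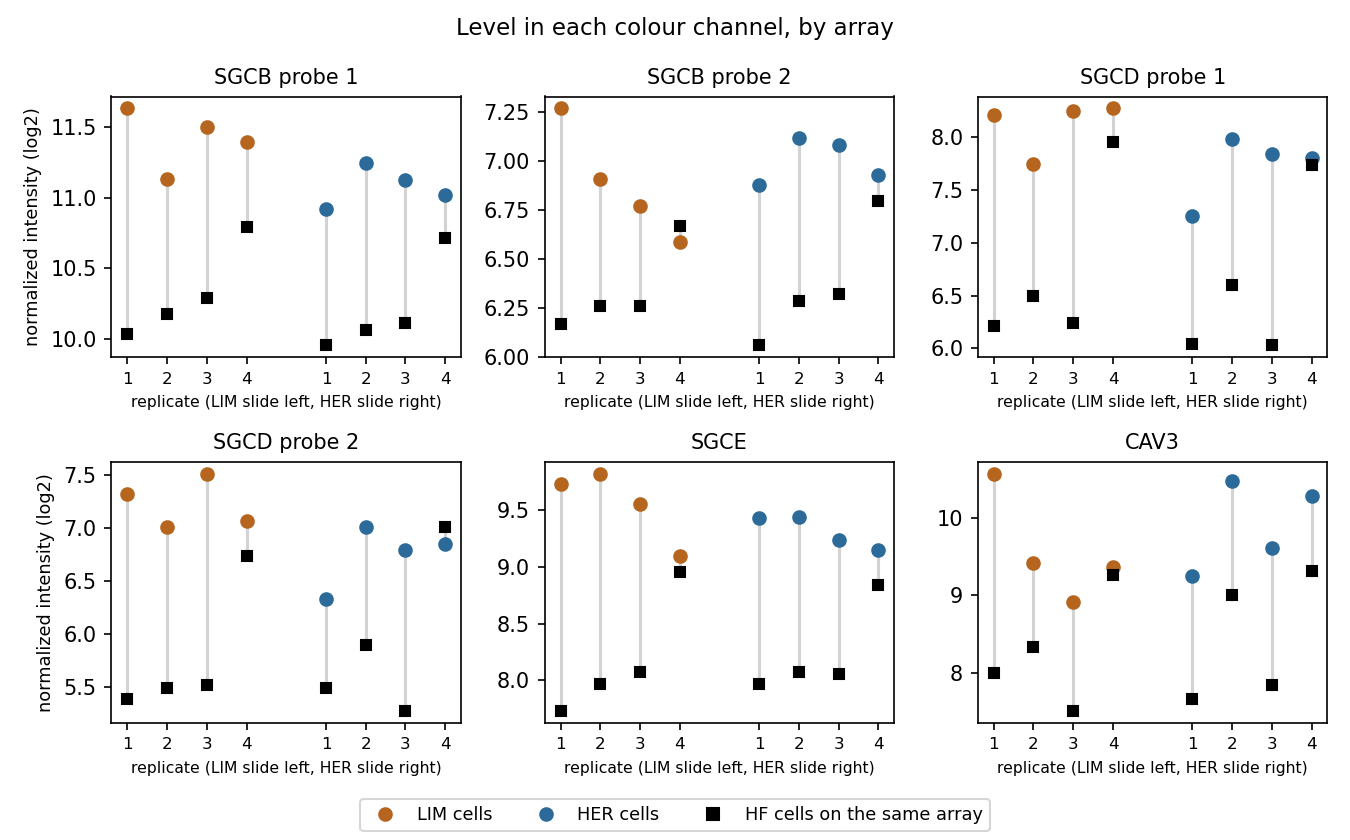
Normalized intensity on a log2 axis for each member probe, by replicate, with the LIM slide on the left and the HER slide on the right of each panel. Circles are LIM or HER cells, black squares are HF cells on the same array, and gray lines join the channels of an array; the vertical axis differs between panels and does not start at 0. The HF squares stand highest at replicate 4 on both slides in all 6 panels.

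Replicate 4 was the lowest array of every member probe in both comparisons and was singled out after the values were seen. Leaving it out could therefore only raise the means. With replicate 4 of LIM left out, all 6 probes were called in LIM, with limma adjusted p between 0.00207 and 0.0147, beside 18.6% of all tested probes called higher. With replicate 4 of HER left out, all 6 were called in HER, with limma adjusted p between 0.0155 and 0.0438, beside 8.97% of all tested probes. Leaving out any other HER array had the opposite outcome. Without HER replicate 1, 2 or 3, the count of genes called in HER by limma fell from 4 to 0 each time, with a smallest limma adjusted p of 0.0657, 0.0674 and 0.0537 in turn, while 4 genes stayed at an unadjusted p of at most 0.05. The share of all tested probes called in either direction fell with it, from 24.4% to 8.93%, 8.66% and 15.1%. The mean of SGCB probe 1 moved from 0.87 to 0.84, 0.76 and 0.82. Without LIM replicate 3, 2 genes were called in LIM (SGCB and SGCE) and 2 in HER (SGCB and CAV3), beside 21.5% and 20.5% of all tested probes called in either direction.

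The HER values also depended on how local background was handled. With normexp background correction and loess in place of the scanner ratio, the HER means were 0.43 for SGCB probe 1, 0.13 for SGCB probe 2, 0.17 and 0.05 for the SGCD probes, 0.39 for SGCE and 0.61 for CAV3. None of the 4 genes was then called in HER by limma, 1 had an unadjusted p of at most 0.05, and 0 of all tested probes were called. The same steps were also run with local backgrounds replaced where the scanner software had marked them as outliers. The HER means were then 0.85, 0.34, 0.62, 0.32, 0.86 and 1.23 in that order. SGCB, SGCE and CAV3 were called in HER, beside 16.9% of all tested probes called in either direction. In LIM, all 4 genes were called under both versions, beside 24% and 26% of all tested probes. The SGCD means in LIM fell to 0.77 and 0.61 with normexp on backgrounds as measured, and to 0.81 and 0.65 with marked backgrounds replaced. Both versions add an offset of 50 to each channel, and SGCD probe 2 had normalized HF intensities from 41.89 to 106.9 on the LIM slide. The part of the offset in the lower means was not tested.

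**Figure D3:**
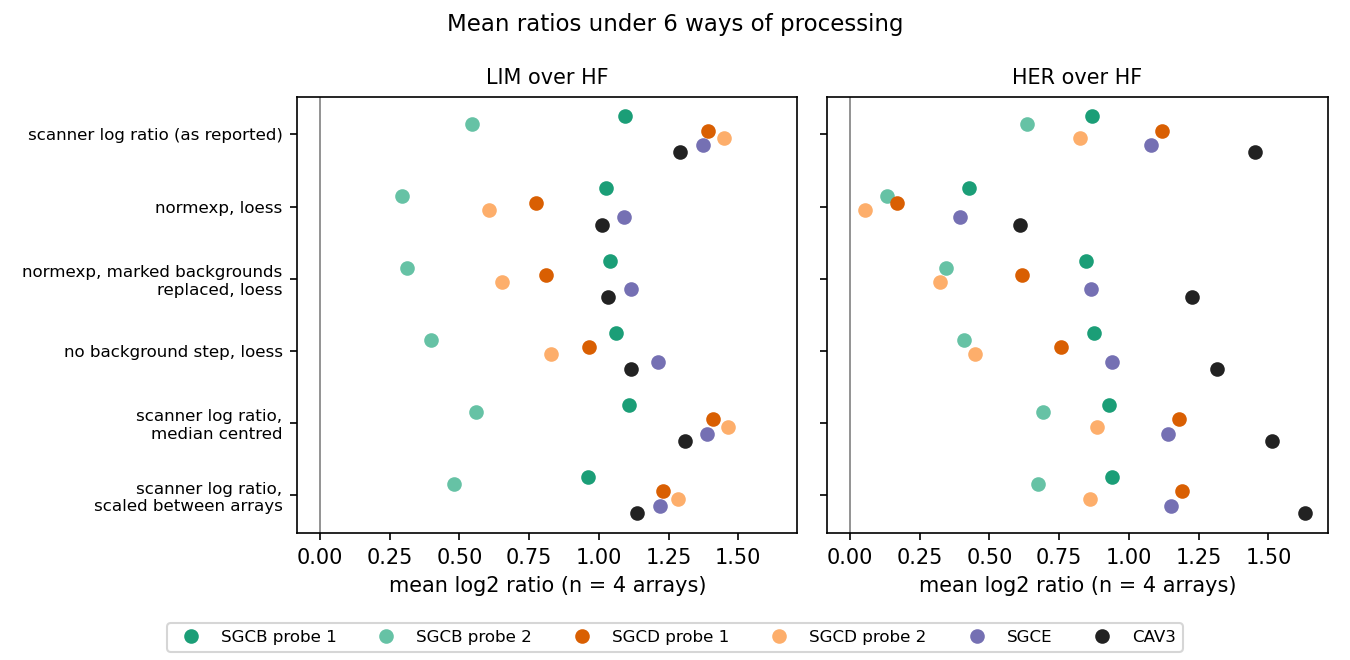
Mean log2 ratio of 4 arrays (horizontal axis) for each member probe under 6 ways of processing, for LIM (left) and HER (right). Each dot is a probe. All means are above 0, and those of HER are lowest with normexp and loess on local backgrounds as measured, between 0.05 and 0.61.

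LIM and HER were set against each other through the HF side, a difference that also carries dye and slide. None of the 6 probes was called, beside 0.233% of all tested probes. SGCD probe 2 had the widest gap, with LIM higher by 0.62 on the log2 scale (95% confidence interval −0.44 to 1.68, limma adjusted p = 0.584). For the other probes, the difference was 0.22 (−0.39 to 0.84) for SGCB probe 1, −0.09 (−0.72 to 0.55) for SGCB probe 2, 0.27 (−0.82 to 1.37) for SGCD probe 1, 0.29 (−0.71 to 1.29) for SGCE and −0.16 (−1.23 to 0.91) for CAV3. The intervals leave room for a difference of more than 1.5-fold in at least one direction for each probe.

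The other partners of the complex lay on both sides of 0. Of 4 such genes tested (5 probes), 0 were called higher, 1 was called lower in LIM and 2 were called lower in HER by limma, beside 18.3% and 14% of all tested probes called lower. The median log2 ratio was 0.01 in LIM and −0.16 in HER, beside −0.01 and −0.06 over all tested probes, and beside 1.33 and 0.97 over the 6 member probes. SNTB2, beta-2-syntrophin, an adaptor that binds dystrophin and its relatives, fell in both comparisons, with means of −0.80 ± 0.31 in LIM (limma adjusted p = 0.00443) and −0.63 ± 0.26 in HER (limma adjusted p = 0.0189), and it was lower on 8 of 8 arrays. Of all tested probes, 9.31% were called lower in both.

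Dystrobrevin and sarcospan, which sit beside dystrophin and the sarcoglycans, gave mixed values. The DTNA probes differed in the HER call. A_73_110033 was at 0.36 ± 0.24 in LIM and was called lower in HER at −0.64 ± 0.24 (limma adjusted p = 0.0127). A_73_112856 was at 0.04 ± 0.30 in LIM and 0.11 ± 1.43 in HER (SD, n = 4) and was called in neither, with a wide HER spread. SSPN, sarcospan, had a LIM mean of −0.40 ± 1.23 (SD, n = 4) and a HER mean of 0.08 ± 0.20 (SD, n = 4), with 6 of 8 arrays above 0. DTNB had means of 0.01 and −0.16, and neither gene passed in either comparison.

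Of 6 genes tested for enzymes that build the sugar chains of dystroglycan (6 probes), 2 were called higher and 1 lower in LIM, and 0 in either direction in HER. Over all tested probes, 16% were called higher and 18.3% lower in LIM, and 10.4% and 14% in HER. DPM1 and B4GAT1 rose in LIM, at 0.66 and 0.70, with 0.25 and 0.18 in HER. DOLK fell in LIM, at −0.70, with −0.12 in HER. The list's medians were 0.20 in LIM and 0.09 in HER. Biglycan (BGN), the 1 gene with a matched probe among 9 listed matrix ligands, had means of 0.94 ± 1.19 in LIM and 1.26 ± 0.94 in HER and passed in neither comparison (limma adjusted p = 0.141 and 0.0754). HSPG2, another of these ligands, had no matched probe, but the study's list from these arrays gives it as higher in both beef breeds.

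Among 8 genes of caveolae and membrane repair (9 probes), 2 were called higher in LIM and 3 in HER, beside 16% and 10.4% of all tested probes, and 0 were called lower. DYSF, dysferlin, which acts in resealing of the muscle membrane, rose in both, with 1.75 ± 0.82 in LIM (3.35-fold, limma adjusted p = 0.0086) and 1.49 ± 0.91 in HER (2.82-fold, limma adjusted p = 0.0238), and was above 0 on 8 of 8 arrays. ANXA2 and ANXA6, annexins that bind membranes in the presence of calcium, rose in HER, at 1.08 and 0.47, with 0.69 and −0.14 in LIM. MYOF, myoferlin, rose in LIM at 1 probe (0.98) and was at −0.26 at the other. CAV1 and CAV2, the caveolins of other tissues, had means of 0.67 and 0.55 in LIM and of 0.66 and 0.33 in HER and were called in neither comparison.

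The genes that link the membrane to the cytoskeleton had a median of 1.60 in LIM and 1.20 in HER, with 3 of 4 genes called higher in both comparisons, beside 7.54% of all tested probes. DES, desmin, the intermediate filament of muscle, had the largest ratios, with 2.91 ± 0.92 in LIM and 2.47 ± 0.50 in HER (limma adjusted p = 0.000799 and 0.00356). ITGA7, the laminin-binding integrin chain of muscle, had means of 1.63 ± 0.41 and 1.40 ± 0.61 (limma adjusted p = 0.00165 and 0.00679), and ANK3, ankyrin-G, an adaptor between membrane proteins and spectrin, had 1.57 ± 0.29 and 1.00 ± 0.92 (limma adjusted p = 0.0052 and 0.0423). VCL, vinculin, was at −0.25 and 0.19 and passed in neither comparison. DES and ITGA7 are on the study's list from these arrays, and all SDs here are over 4 arrays.

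**Figure D4:**
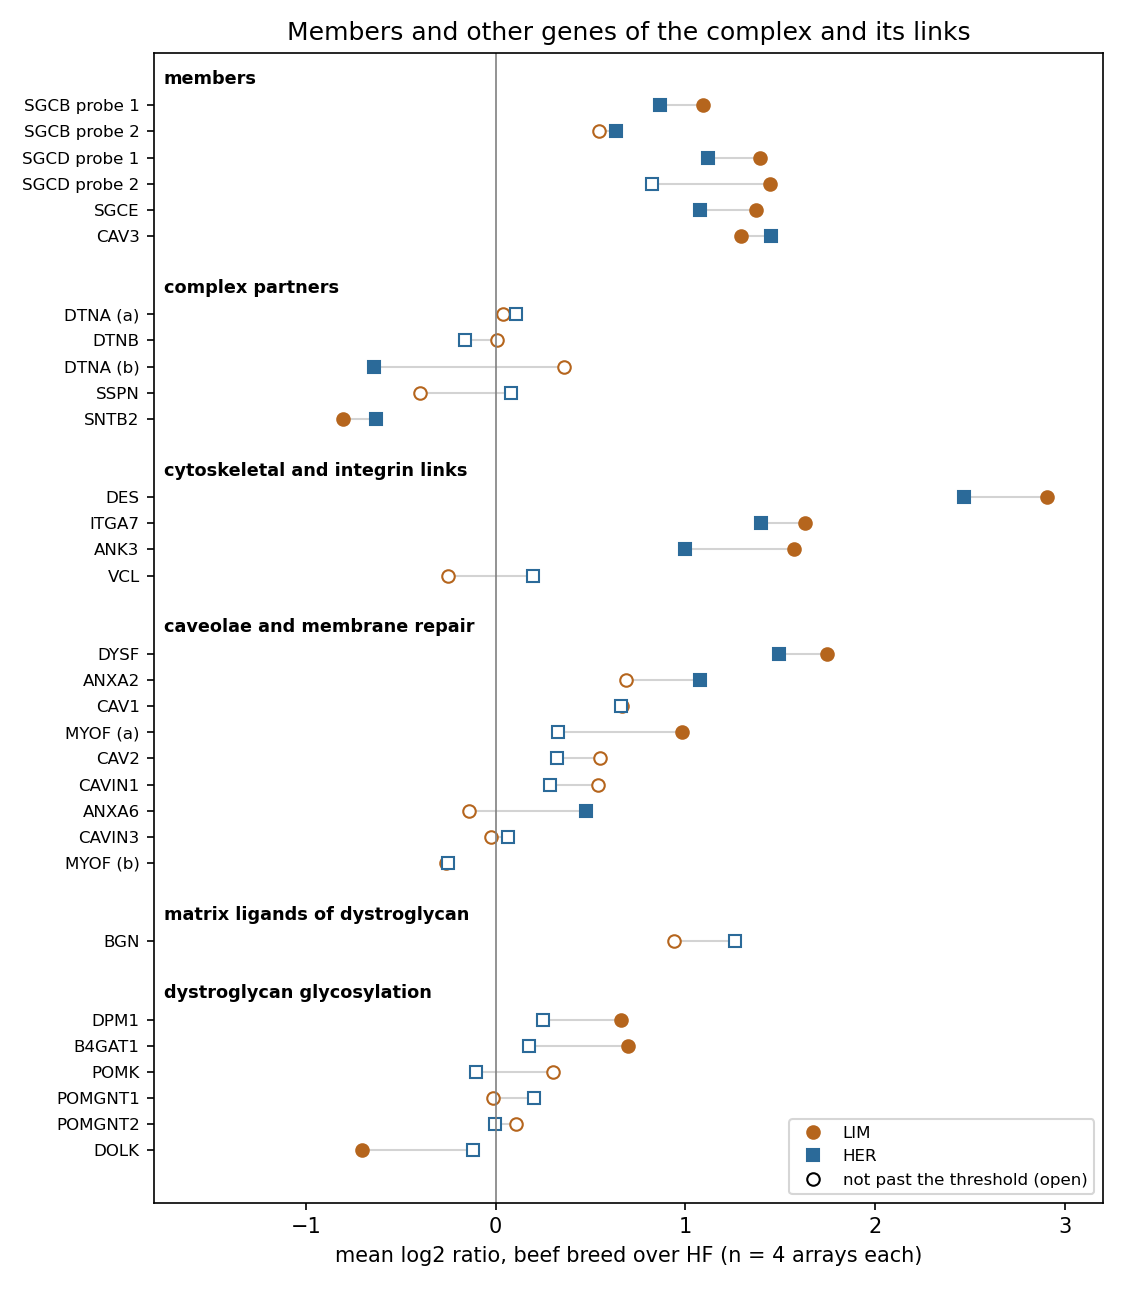
Mean log2 ratio over HF (horizontal axis) for each tested probe of the members and of 5 lists of related genes, with LIM as circles and HER as squares, each over 4 arrays. Filled symbols passed the threshold, open ones did not, and letters tell probes of a gene apart. All member means lie above 0, and complex partners and glycosylation enzymes lie on both sides of 0.

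Markers of cell types also differed between beef and HF cells, in both directions, and their part in the members' ratios was not tested. Of 6 tested myoblast genes, among them DES and MYF5 from the study's list, 4 were called higher in LIM and 3 in HER. Over all tested probes, 16% and 10.4% were called higher. Markers of myoblasts were present in every channel, while PAX7 had no matched probe. Their summed intensity ran from 21100 to 68250 in LIM cells against 6830 to 33970 in HF cells on the same slide, and from 19950 to 64310 in HER cells against 10180 to 31260. CKM, a gene of differentiating muscle, was well above background in 3 beef channels and 0 HF channels and was not tested. Of 7 tested genes of differentiating muscle, among them MYOG and ACTA1, 7 were called higher in both comparisons, beside 7.54% of all tested probes. Their median was 3.53 in LIM and 3.13 in HER. All 7 are on the study's list from these arrays, so their count is not independent evidence of direction. The sum over these genes ran from 26520 to 56070 in LIM cells against 1611 to 5416 in HF cells on the same slide, and from 10230 to 66260 in HER cells against 1130 to 6061.

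Fibroblast markers also differed. Of 9 tested genes (11 probes), 5 were called higher in each comparison, with 1 lower in LIM and 2 in HER. Over all tested probes, 16% and 10.4% were called higher in LIM and HER, and 18.3% and 14% lower. The summed intensity of the fibroblast markers ran from 363700 to 633800 in LIM cells against 61120 to 228500 in HF cells, and from 366700 to 522600 in HER cells against 73880 to 206700. These sums are linear, so the brightest probes weigh most in them. COL1A1, COL1A2, COL3A1 and LUM were called higher in both comparisons, and PDGFRA was called lower in both. DCN was called higher in LIM at 1 probe (1.89), while its other probe was at −0.40 in LIM and −0.29 in HER. In HER alone, THY1 was called higher and TCF21 lower. Of 4 smooth muscle and pericyte genes, 1 was called higher in LIM and 2 in HER, beside the same 16% and 10.4% of all tested probes. Summed over the list, the beef cells ran from 211800 to 457300 on the LIM slide and from 326000 to 443900 on the HER slide, against 103200 to 266500 and 158300 to 245000 in HF cells.

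The remaining marker lists held few tested genes. Over all tested probes, 16% were called higher and 18.3% lower in LIM, 10.4% and 14% in HER, and 7.54% higher in both. Of 3 endothelial genes, 0 were called in LIM and 1 lower in HER, and the summed levels of beef and HF cells overlapped on both slides. Of 5 adipocyte genes, 1 was called higher and 2 lower in LIM and 1 in each direction in HER, with summed levels lower in beef than in HF cells on 8 of 8 arrays. Of 2 leukocyte genes, 1 was called higher in both comparisons, at low summed levels (151 to 344.2 over all beef channels), and ITGAM was well above background in 0 of 16 channels. The 2 tested genes of dividing cells were called in neither comparison, and of 4 reference genes 2 were called higher in LIM and 0 in HER.

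The member probes varied together across the arrays. Over the 15 pairs of probes, Pearson r ran from 0.656 (SGCD probe 2 with CAV3) to 0.961 (the SGCD probes), over 8 arrays that share HF bulls and, in groups of 4, a slide. Among probes with a symbol outside the members, those nearest to the mean of the sarcoglycan probes were RRAGB (r = 0.985), ARSA (0.978), FBXL4 (0.973), SDHB (0.970) and COL1A2 (0.970), over 8 arrays. Their mean log2 ratios differed in size, from 0.37 in LIM and 0.28 in HER for SDHB to 2.67 and 2.43 for COL1A2.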

How the data were processed

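The authors deposited, per array, scanner output from Feature Extraction (version 10.7.3.1) for 44407 spots. It holds the log10 of red over green, already background-subtracted and dye-normalized by that software, and processed intensities of both colors. The deposited series table repeats this log10 ratio. Breed, dye and replicate number came from the labels. The log10 ratios were turned to log2 beef over HF, with control spots and spots marked as outliers left out and spots of a probe averaged. No spot was saturated. Channel levels are the deposited processed intensities, with the average of the channels brought to one distribution across arrays (Aquantile). The share of probes well above background ran from 68.8% to 85.2% by channel, and the number of arrays limits the precision. The LIM and HER arrays were fitted together with a mean for each comparison (lmFit and eBayes, limma 3.58.1, R 4.3.3) over 17629 probes, and the steps were tested on simulated data. The study's methods name a t-test at p of at most 0.05 with a fold change of at least 1.3.

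Symbols came from RefSeq accessions by lookup in a RefSeq gene table (assembly ARS-UCD2.0), which held 7793 of the 20693 accessions. The files rest on another assembly, so no coordinates are given. Members, gene lists and tests were chosen with earlier results of these data known. Named were all members with every probe, from each list up to 4 genes with the largest mean called in both comparisons in the same direction, and the 5 genes most like the sarcoglycans. Other genes of the lists and the pattern on replicate 4 were named after their values were seen. Some genes of the lists are not reported here. Alternatives covered background correction, centring, scaling, the series table, the filter on dim probes, the t-test of the methods, the fold threshold, weights per array, a block on the replicate number, and dropping each array in turn.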

Additional observations from a re-analysis of the deposited data

Results flagged for a closer look

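The HER log2 ratios of SGCB probe 2 held a sample far from the others, with replicate 4 at 0.13 and replicates 1 to 3 between 0.76 and 0.83. The gap of replicate 4 to its nearest neighbor was 0.899 of the whole range, above Dixon's critical value for 4 samples. With 12 groups of 4 arrays examined for the members, chance alone marks about 1 in 20 groups.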

How the results depend on the processing

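The 4 genes were called in the mean of LIM and HER under all 22 alternatives run. Calls over all probes in that mean ran from 3289 to 7552 around 6723. In the difference of LIM and HER, 0 genes were called under all 21. In LIM, the count was 4 under all alternatives except the methods' t-test and leaving out an array. The t-test gave 3 genes unadjusted (SGCB, SGCD and SGCE, without CAV3), beside 28.8% of all tested probes, and 0 after Benjamini-Hochberg adjustment. Leaving out an array gave 2 to 4. In HER, normexp and loess gave 0, and no filter on dim probes gave 2, beside 18.1% of the probes then tested. The methods' t-test gave 3 unadjusted (SGCB, SGCE and CAV3, without SGCD), beside 27.4%, and 0 adjusted, and leaving out an array gave 0 to 4. The cause was not tested. Over all probes, calls in LIM fell from 6056 to 1002 with the adjusted t-test and to 3794 without LIM replicate 3. In HER they fell from 4302 to 2 with the adjusted t-test, to 0 with normexp and loess, and to 1574, 1527 and 2660 without HER replicates 1, 2 and 3. In the difference of LIM and HER they ran from 0 to 2482 around 41. That difference changed sign for SGCB probe 2 (0.16 with normexp and loess, and −0.27 to 0.12 with an array left out), for SGCD probe 1 (−0.079 to 0.63 with an array left out) and for CAV3 (0.40 with normexp and loess, and −0.59 to 0.23 with an array left out), and was called in none of these. The turns came without LIM replicate 4 (SGCB probe 2, CAV3) and without HER replicate 4 (SGCD probe 1). The replicate numbers were not shown to pair the arrays, since deviations of arrays with the same number correlated at −0.24, 0.13, 0.30 and 0.54. With the replicate number as a block, 4 genes were called in LIM and 4 in HER, through 6 probes each, and 6357 and 4302 of all probes. With the number as a random effect, chosen after seeing the data, 4 genes were called in each through 5 probes, without SGCB probe 2 in LIM (limma adjusted p = 0.0502) and SGCD probe 2 in HER (0.078). With arrays of a number averaged, also chosen then, 4 genes were called for the mean of LIM and HER.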
